A study of Mus musculus with 12 samples.

Results

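Cell surface markers that are used to stage and sort reprogramming cells were examined by their own mRNA levels along the conversion of fibroblasts to pluripotent cells. The set held 10 genes, found by symbol in the deposited table of 24098 genes. They were Thy1 and Pdpn, Cd44 and Cd34, Ly6a (which encodes Sca-1), the fucosyltransferase genes Fut4 and Fut9, Pecam1 and Icam1, and Prom1 (which encodes CD133). All 10 symbols were in the table, and 9 of them reached 1 FPKM (fragments per kilobase of transcript and of mapped fragments, as cuffdiff scales it) in at least 1 library, with Fut9 as the exception.

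The libraries were mRNA-Seq of mouse embryonic fibroblasts (MEFs), reprogramming cells and pluripotent lines, with 1 library for each of 12 conditions and no replicates. The MEFs carried GFP as a tag of Oct4. They were infected with pMXs retroviruses for the OSKM factors (Oct4, Sox2, Klf4 and c-Myc), then kept in medium with LIF, bFGF, CHIR99021, ascorbic acid and knockout serum replacement. D0 was day 0, labelled as wild type, and D3 the unsorted cells of day 3. Cells of days 6 and 9 were sorted into Thy-1- fractions (D6T- and D9T-) and Thy-1+ fractions (D6T+ and D9T+), and cells of days 12 and 16 into SSEA-1+ fractions (D12S+ and D16S+) and SSEA-1- fractions (D12S- and D16S-). The study treats Thy-1- and then SSEA-1+ cells as the successful route and the opposite fractions as the unsuccessful one. Fully reprogrammed iPSCs and mouse embryonic stem cells (mESCs) of the single line ESD3 were the end points. The labels do not say whether the fractions of different days came from 1 infection, so a step between days may also be a step between cultures. Between D9T- and D12S+ the sorting marker changed as well.

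Thy-1 is a small glycoprotein held on the fibroblast surface by a glycosylphosphatidylinositol (GPI) anchor, and its loss is an early mark of MEFs that respond to the factors. SSEA-1 is not a protein but the Lewis X carbohydrate, which alpha-1,3-fucosyltransferases such as those encoded by Fut4 and Fut9 complete on N-acetyllactosamine chains. CD44 and ICAM1 are adhesion receptors that have been used to divide late intermediates, and PECAM1 and CD34 are best known from endothelial and haematopoietic cells. The values below are levels of mRNA, not of surface protein or carbohydrate.

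In outline, Thy1 and Pdpn were highest in D0 and were already low in the Thy-1- fraction of day 6. Cd44 and Cd34 were at 62.0 and 57.0 FPKM in D9T-, against 86.0 and 55.4 FPKM in D0, and were lower in D12S+, D16S+ and iPSCs in turn, while D16S- kept 83.3 FPKM of Cd44 and 50.4 FPKM of Cd34. Ly6a stood apart, since it was low in D0, iPSCs and mESCs and between 233 and 1180 FPKM in every library of days 3 to 16. Pecam1 was the only one of the 9 genes past 1 FPKM that was higher in the successful fraction on all 4 sorted days. Of the fucosyltransferase genes, Fut4 was lower in the SSEA-1+ fractions than in the SSEA-1- ones, and Fut9 was higher in them but stayed under 1 FPKM.

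**Figure D1:**
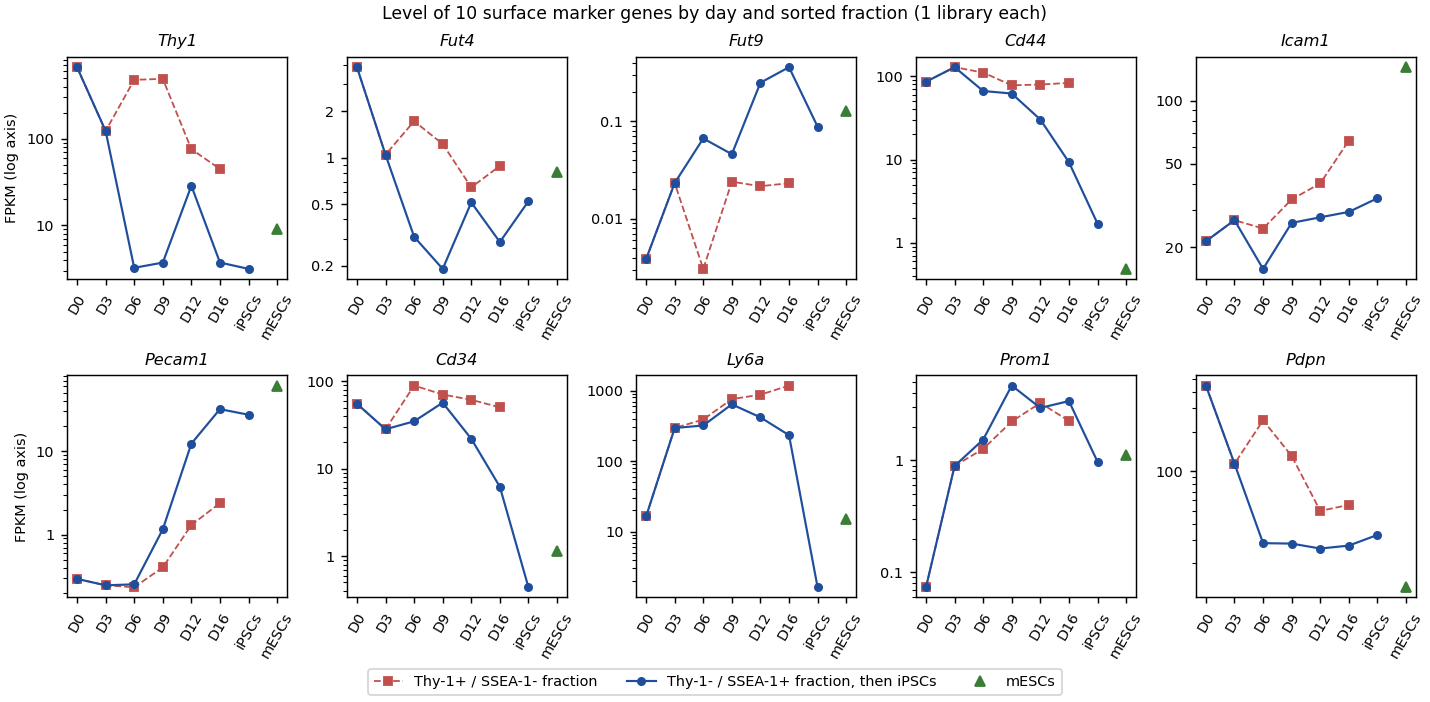
FPKM (log axis, a separate range for each gene) of the 10 surface marker genes against day, with circles for D0, D3, the Thy-1- or SSEA-1+ fraction and iPSCs, squares for D0, D3 and the Thy-1+ or SSEA-1- fraction, and a triangle for mESCs, each point being 1 library. Cd44 and Cd34 part between the routes on days 12 and 16, and Cd34 also on day 6. Pecam1 reaches 31.9 FPKM in D16S+, and Ly6a is at 233 FPKM in D16S+ and 1.62 FPKM in iPSCs.

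With 1 library per condition there was no test, and a difference is called at least 2-fold when the values of log2(FPKM + 1) differ by at least 1. Such differences are compared with the share of all 14178 genes of at least 1 FPKM in some library that pass the same fold. The only error attached to a value is the interval of cuffdiff, which is modelled and does not come from replicates. The study does not state how its spread was set without them, so intervals that overlap do not show that levels are equal. Of the 120 values of the 10 genes, 85 had an interval that started at 0, and the median distance from the FPKM to either end was 107% of the FPKM. No 2 neighbours in the order of levels had intervals apart for any of the 10 genes. Over all 66 pairs of libraries, the intervals lay apart in 12 pairs for Cd44, 10 for Pecam1, 5 for Ly6a and 4 for Cd34, and in 0 pairs for the other 6 genes. In bulk RNA, fewer cells of a type and less RNA per cell cannot be told apart. Total FPKM lay between 484968 in D16S+ and 648264 in D0, and depth estimated from the steps of low values lay between 0.967 and 1.56 times that of D0.

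**Figure D2:**
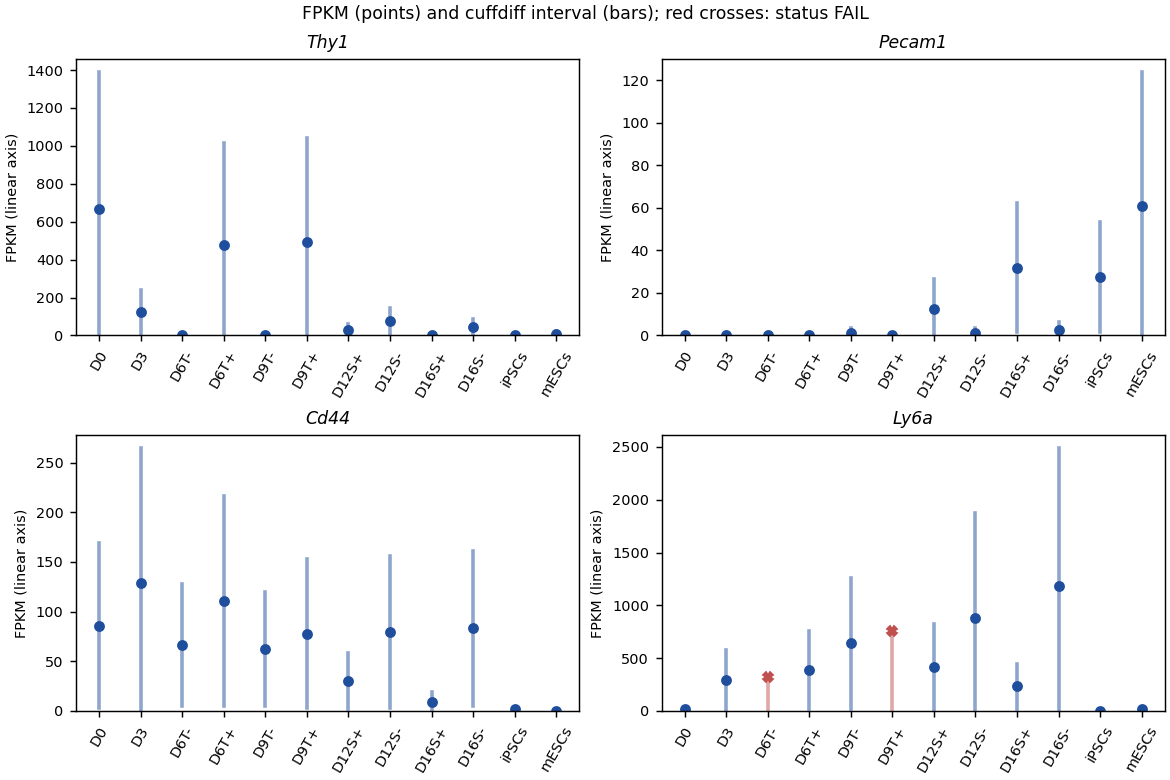
FPKM (points, linear axis) and cuffdiff intervals (bars) of Thy1, Pecam1, Cd44 and Ly6a in the 12 libraries, with red crosses for values whose estimate had failed. The Ly6a interval of D16S+ starts at 20.2 FPKM and lies above that of iPSCs, which ends at 5.20 FPKM, whereas most Thy1 intervals start at 0 or near it.

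Thy1 lies on chromosome 9 (43851467 to 43856662, plus strand, mm9) in 4 annotated exons. Its level was 669 FPKM in D0 and 123 FPKM in D3. On day 6 it was 3.24 FPKM in D6T- and 477 in D6T+, and on day 9 it was 3.72 in D9T- and 491 in D9T+. Since Thy-1 was the sorting marker of these days, the log2 differences of -6.82 and -6.70 are a check of the sort and not a finding, and the transcript followed the label in both. The SSEA-1 fractions were not labelled as sorted on Thy-1, and there Thy1 was 28.7 FPKM in D12S+, 75.7 in D12S-, 3.73 in D16S+ and 44.8 in D16S-. D12S+ was thus 2.65 above D9T- on the log2 scale and D16S+ dropped by 2.65 from D12S+, which places D12S+ between the Thy-1- libraries and D3. Among the end points, iPSCs held 3.15 FPKM and mESCs 9.00 FPKM. D16S- differed from D0 by -3.87 on the log2 scale, so neither late fraction held the Thy1 level of the day 6 and day 9 Thy-1+ cells.

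Pdpn encodes podoplanin, a mucin-like glycoprotein of fibroblasts and lymphatic endothelium that binds ERM proteins inside the cell (chromosome 4, 142857334 to 142889467, minus strand). Its level was 447 FPKM in D0, 114 in D3, 28.4 in D6T- and 243 in D6T+. It was 28.2 FPKM in D9T-, 131 in D9T+, 25.8 in D12S+ and 49.9 in D12S-. D16S+ had 27.2 FPKM, D16S- 55.4, iPSCs 32.8 and mESCs 13.1. Pdpn therefore reached its low level by day 6 in the Thy-1- cells and held it within 25.8 to 32.8 FPKM up to the iPSCs, and it did not reach the value of mESCs. In the unsuccessful fractions it was lower on each later day up to day 12. The log2 difference between fractions was -3.06 on day 6, -2.17 on day 9, -0.92 on day 12, and on day 16 it was just past 2-fold in the same direction, with -0.89 and -0.98, under 2-fold, when libraries were scaled to 1 total FPKM or by the median of ratios. The fractions of days 6 and 9 were thus further apart than those of days 12 and 16.

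Cd44 encodes the main receptor for hyaluronan (chromosome 2, 102651298 to 102741822, minus strand). Its level was 86.0 FPKM in D0, 129 in D3, 66.5 in D6T- and 111 in D6T+. It was 62.0 FPKM in D9T-, 77.8 in D9T+, 30.2 in D12S+ and 79.6 in D12S-. D16S+ had 9.28 FPKM, D16S- 83.3, iPSCs 1.70 and mESCs 0.485. All libraries of days 0 to 9 and both SSEA-1- libraries lay between 62.0 and 129 FPKM, and D12S+, D16S+, iPSCs and mESCs lay below them in that order. The fractions differed by -0.73 and -0.32 on the log2 scale on days 6 and 9, under 2-fold, and by -1.37 on day 12 and -3.03 on day 16. The steps along the successful route were -1.01 into D12S+, -1.60 into D16S+ and -1.93 into iPSCs, whereas D16S- differed from D0 by -0.05 (0.25 at 1 total FPKM). The intervals of D6T+, D16S-, D6T- and D9T- each lay above that of iPSCs.

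Cd34 encodes a sialomucin of haematopoietic progenitors, endothelium and some fibroblasts (chromosome 1, 196765015 to 196787486, plus strand). It shares exonic sequence with the lincRNA Gm16897 on the opposite strand, and the study does not state whether strand was used in counting. Its level was 55.4 FPKM in D0, 28.3 in D3, 34.9 in D6T- and 89.5 in D6T+. It was 57.0 FPKM in D9T-, 70.7 in D9T+, 22.0 in D12S+ and 61.5 in D12S-. D16S+ had 6.21 FPKM, D16S- 50.4, iPSCs 0.440 and mESCs 1.14. As with Cd44, the SSEA-1- libraries were near D0 and the SSEA-1+ libraries lay between D0 and the pluripotent cells. The difference between fractions was -1.33, -0.31, -1.44 and -2.83 on days 6, 9, 12 and 16. D9T-, D12S- and D16S- had intervals above that of iPSCs.

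Over the 12 libraries, Cd34 and Cd44 had a Pearson r of 0.956 on log2(FPKM + 1) and a Spearman rho of 0.664, and r was 0.847 without mESCs and iPSCs, the libraries farthest from the median of Cd44. Thy1 and Pdpn had an r of 0.887 and a rho of 0.748, with an r of 0.841 without D0 and D9T+. These are descriptions over libraries that share 1 course of reprogramming. The promoters of Cd34 and Cd44 are shown because these genes reached low levels late on the route, and that of Pdpn because it did so by day 6. Each window runs from 250 bases before to 50 bases after the RefSeq gene start, is given 5′ to 3′ on the strand of the gene, and was placed on mm9 by an exact match at 1 position. It is chr1:196764765-196765064 (plus strand) for Cd34, chr2:102741773-102742072 (minus strand) for Cd44 and chr4:142889418-142889717 (minus strand) for Pdpn. Capitals mark GC boxes (GGGCGG on either strand).
Cd34: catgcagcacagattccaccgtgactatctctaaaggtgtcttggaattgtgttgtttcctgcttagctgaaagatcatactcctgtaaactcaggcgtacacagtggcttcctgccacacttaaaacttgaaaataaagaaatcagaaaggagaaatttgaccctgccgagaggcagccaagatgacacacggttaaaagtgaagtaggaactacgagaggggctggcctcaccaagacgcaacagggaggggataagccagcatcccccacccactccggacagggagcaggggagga
Cd44: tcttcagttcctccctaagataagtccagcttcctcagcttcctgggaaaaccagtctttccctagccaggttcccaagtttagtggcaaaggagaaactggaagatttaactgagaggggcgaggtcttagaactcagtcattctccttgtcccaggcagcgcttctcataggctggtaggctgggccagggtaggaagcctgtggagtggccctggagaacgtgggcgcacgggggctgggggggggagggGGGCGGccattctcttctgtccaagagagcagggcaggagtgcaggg
Pdpn: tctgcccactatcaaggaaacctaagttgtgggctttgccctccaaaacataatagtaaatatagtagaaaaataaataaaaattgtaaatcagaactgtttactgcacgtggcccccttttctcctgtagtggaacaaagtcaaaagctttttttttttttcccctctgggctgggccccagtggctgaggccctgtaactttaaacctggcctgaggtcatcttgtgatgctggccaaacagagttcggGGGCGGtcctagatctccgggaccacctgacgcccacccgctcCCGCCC
The Cd44 window held 1 GC box and that of Pdpn 2, a motif found in 35.9% of 32544 RefSeq promoter windows of 300 bases, and the Cd34 window held 0. The 3 windows held 7, 6 and 7 CpG dinucleotides, against a median of 7 over all windows with quartiles of 3 and 20. Matches to AP-1 sites (TGANTCA, in 7.79% of windows), CCAAT boxes (37.4%), TATA boxes (TATAAA, 13.6%), octamers (ATGCAAAT, 1.75%) and GAS elements (TTCNNNGAA, 8.33%) were not in these letters, on either strand. RefSeq windows were held for 6 of the 10 genes and were not used here for Thy1, Fut9, Pecam1 and Ly6a.

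Ly6a encodes the GPI-anchored Sca-1, a marker of haematopoietic and mesenchymal progenitors (chromosome 15, 74825308 to 74828064, minus strand). It has close copies in the Ly6 family and reads with several loci were removed, so its level is uncertain. The level was 16.4 FPKM in D0, 295 in D3, 320 in D6T- and 389 in D6T+. It was 639 FPKM in D9T-, 758 in D9T+, 417 in D12S+ and 876 in D12S-. D16S+ had 233 FPKM, D16S- 1180, iPSCs 1.62 and mESCs 15.3. The estimates of D6T- and D9T+ had the status of a failed fit and lay outside their own intervals. All 9 libraries from D3 to D16 were above the 3 libraries of D0, iPSCs and mESCs. D3 exceeded D0 by 4.09 on the log2 scale, the 33rd highest of 14178 genes, and D16S- exceeded D0 by 6.09, the 25th highest. The fractions differed by -0.28 and -0.25 on days 6 and 9, by -1.07 on day 12 and by -2.33 on day 16. From D16S+ to iPSCs Ly6a dropped by 6.48, the 4th lowest difference of 14178 genes, and the 2 intervals lay apart.

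Of 19 Ly6 family genes in the list that goes with Ly6a and includes it, 16 passed 1 FPKM. In D16S+ against D16S-, 3 were at least 2-fold higher (11.8% of all genes). Another 4 were lower (Ly6a itself, Ly6c1, Lynx1 and Plaur, against 15.2%). The median log2 difference was -0.77 against -0.02 over all genes. Ly6c1, a neighbour of Ly6a in the Ly6 cluster and a marker of monocytes and endothelium, was at 7.31 FPKM in D0, 11.7 in D3, 261 in D9T-, 40.8 in D16S+, 321 in D16S- and 0.363 in iPSCs. It was thus low in D3, where Ly6a was already high, and followed it on the later days. Ly6g6e had the opposite order on day 16, with 17.6 FPKM in D16S+ and 0.887 FPKM in D16S-. Of 24 genes for GPI anchor synthesis and transfer, which Thy-1 and Sca-1 both need, 4 were higher (18.7% of all genes) and 3 lower (21.6%) in iPSCs than in D0, with a median of -0.12 against 0.03 over all genes, shares near or below those of all genes. In D16S+ against D16S-, 1 was higher (11.8%) and 0 were lower (15.2%).

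Fut4, a gene of 1 exon (chromosome 9, 14552903 to 14556566, minus strand), was at 3.85 FPKM in D0, 1.05 in D3, 0.309 in D6T- and 1.73 in D6T+. It was at 0.191 FPKM in D9T-, 1.23 in D9T+, 0.514 in D12S+ and 0.644 in D12S-. D16S+ had 0.285 FPKM, D16S- 0.887, iPSCs 0.524 and mESCs 0.808. After D3 the level passed 1 FPKM only in D6T+ and D9T+, and D0 was the highest. The fractions differed by -1.06, -0.90, -0.12 and -0.55 on days 6, 9, 12 and 16, so the SSEA-1+ cells had no excess of Fut4 mRNA, and their intervals overlapped those of the SSEA-1- cells.

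Fut9 (chromosome 4, 25536479 to 25727391, minus strand, with a second short gene record of the same name inside it) was at 0.00386 FPKM in D0, 0.0233 in D3, 0.0667 in D6T- and 0.00306 in D6T+. It was at 0.0460 FPKM in D9T-, 0.0240 in D9T+, 0.249 in D12S+ and 0.0216 in D12S-. D16S+ had 0.360 FPKM, D16S- 0.0232, iPSCs 0.0882 and mESCs 0.127. D12S+ and D16S+ were the 2 highest libraries, a pattern shared by 3.06% of the 19417 genes above 0 in some library. The ratio of the SSEA-1+ to the SSEA-1- level was 11.5 on day 12 and 15.5 on day 16. Among 1899 genes that stayed under 1 FPKM and were above 0 in these 4 libraries, 6 (0.316%) had ratios of at least 10 on both days, a limit chosen after the values of Fut9 had been seen. On the scale of log2(FPKM + 1) the differences were only 0.29 and 0.41, the intervals of all 12 libraries started at 0, and a difference in Fut9 is not resolved by them.

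The other enzymes of SSEA-1 synthesis differed in direction. Among the other alpha-1,3-fucosyltransferase genes of the list, Fut10 was at 7.32 FPKM in D0, 1.33 in D16S+ and 5.66 in D16S-, Fut11 was at 6.18, 1.96 and 4.17 in these libraries, and Fut7 was at most 0.0572 in any library. The full list also holds Fut4, and its 3 genes past 1 FPKM were Fut4, Fut10 and Fut11. Of these, 0 were at least 2-fold higher (11.8% of all genes) and 1 (Fut10) was lower (15.2%) in D16S+ than in D16S-. Of 11 genes for the N-acetyllactosamine acceptor past 1 FPKM, 1 was higher (11.8%) and 2 were lower (15.2%) in D16S+, with a median of -0.20 against -0.02 over all genes. The higher one was B3gnt7, a transferase that extends poly-N-acetyllactosamine chains, with 0.187 FPKM in D0, 13.0 in D9T- against 5.18 in D9T+, 70.5 in D16S+ against 20.9 in D16S-, and 73.4 in iPSCs. B4galt1, which makes the lactosamine unit, went the other way from 68.1 FPKM in D0 to 14.2 in D16S+ and 23.4 in D16S-. Of the 5 genes for GDP-fucose supply, 0 were higher and 1 was lower in D16S+, namely Slc35c1, which encodes the GDP-fucose transporter of the Golgi, at 11.1 FPKM against 23.6 in D16S-. None of these 5 was 2-fold apart between iPSCs and D0.

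**Figure D3:**
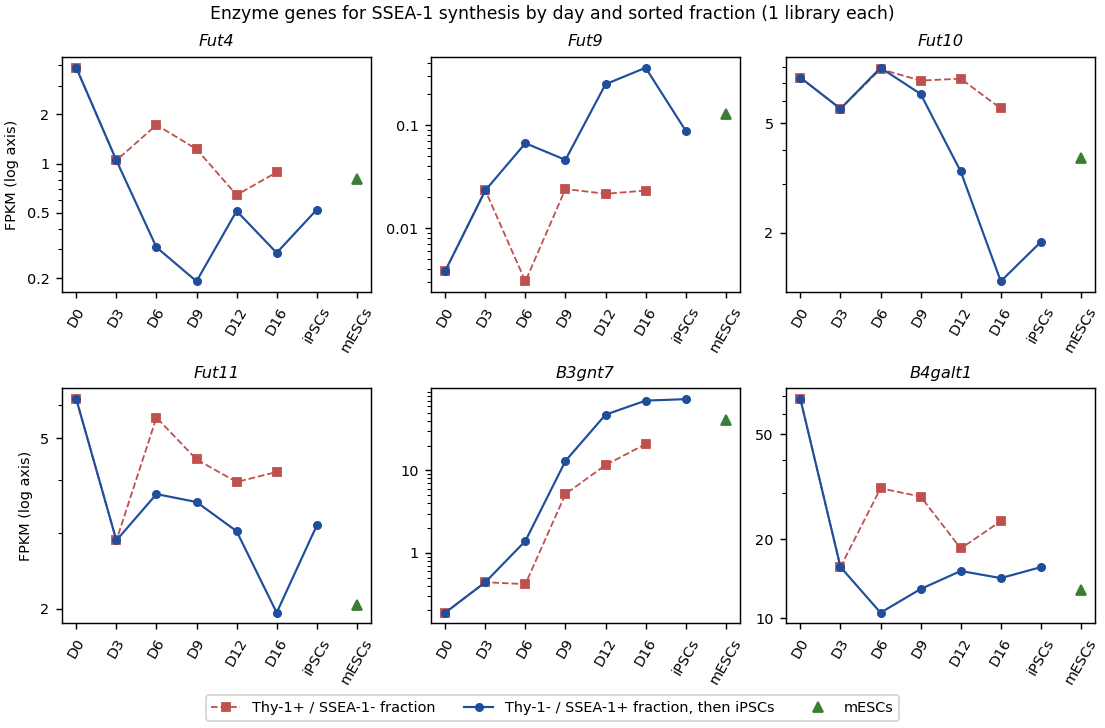
FPKM (log axis, a separate range for each gene) of 6 genes of SSEA-1 synthesis against day, with circles for the Thy-1- or SSEA-1+ route up to iPSCs, squares for the Thy-1+ or SSEA-1- fractions and a triangle for mESCs, each point being 1 library. Fut9 and B3gnt7 are higher in the SSEA-1+ than in the SSEA-1- libraries, at 0.360 against 0.0232 FPKM and 70.5 against 20.9 FPKM on day 16, while Fut4, Fut10, Fut11 and B4galt1 are lower.

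Pecam1 encodes CD31, an immunoglobulin-type adhesion receptor of endothelium that mouse pluripotent cells also carry (chromosome 11, 106515531 to 106611942, minus strand). Its level was 0.296 FPKM in D0, 0.247 in D3, 0.254 in D6T- and 0.234 in D6T+. It was 1.16 FPKM in D9T-, 0.406 in D9T+, 12.3 in D12S+ and 1.30 in D12S-. D16S+ had 31.9 FPKM, D16S- 2.39, iPSCs 27.3 and mESCs 61.1. The 4 libraries up to day 6 lay within 0.234 to 0.296 FPKM, and D12S+, D16S+ and the pluripotent cells lay above all others. The fractions differed by 0.02, 0.62, 2.53 and 3.28 on days 6, 9, 12 and 16. The intervals of D16S+ and of iPSCs each lay above those of D0, D3, D6T-, D6T+ and D9T+. iPSCs differed from D16S+ by -0.21, and D16S- was 1.39 above D0. Over the 12 libraries Pecam1 and Cd44 had an r of -0.932 and a rho of -0.839, with an r of -0.931 without mESCs and iPSCs.

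Icam1 encodes an immunoglobulin-type receptor for leukocyte integrins (chromosome 9, 20820404 to 20833241, plus strand) and shares exonic sequence with the lincRNA Mir1900 on the opposite strand. Its level was 21.3 FPKM in D0, 26.9 in D3, 15.7 in D6T- and 24.5 in D6T+. It was 26.1 FPKM in D9T-, 33.8 in D9T+, 27.8 in D12S+ and 40.3 in D12S-. D16S+ had 29.5 FPKM, D16S- 64.5, iPSCs 34.2 and mESCs 145. The successful route stayed within 15.7 to 34.2 FPKM, while D16S- and mESCs were the 2 highest. The fractions differed by -0.61, -0.36, -0.52 and -1.10 on days 6, 9, 12 and 16, the last being -0.99 at 1 total FPKM, and iPSCs differed from mESCs by -2.05. Cd44 and Icam1 were thus on opposite sides in mESCs, with 0.485 FPKM of Cd44 and 145 FPKM of Icam1.

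The Icam1 promoter window is shown because it held more motif matches than those above, at chr9:20820134-20820433 (plus strand, mm9), again from RefSeq and 5′ to 3′, with 2 GC boxes, 1 TATA box and 1 GAS element in capitals.
Icam1: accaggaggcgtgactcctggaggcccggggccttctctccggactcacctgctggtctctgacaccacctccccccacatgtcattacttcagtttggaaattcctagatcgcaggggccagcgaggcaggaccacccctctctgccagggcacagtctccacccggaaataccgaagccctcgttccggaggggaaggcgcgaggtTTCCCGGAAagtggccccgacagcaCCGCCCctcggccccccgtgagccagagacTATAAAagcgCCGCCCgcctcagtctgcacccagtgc
This window held 19 CpG dinucleotides. The GAS element, the consensus bound by STAT proteins, began 42 bases before the RefSeq gene start. This start lies upstream of the annotated start given above for Icam1. The TATA box match began at base 14 after the RefSeq start. Of the 6 relatives and ligands of Icam1 past 1 FPKM, 0 were higher (11.8% of all genes) and 2 lower (15.2%) in D16S+ than in D16S-, with a median of -0.11 against -0.02 over all genes. Vcam1, which encodes the receptor for the integrin VLA-4, was at 25.0 FPKM in D0, 2.01 in D16S+, 17.0 in D16S- and 0.142 in iPSCs, and Icam2 was at most 0.382 in any library.

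Prom1 encodes the pentaspan membrane protein CD133 of membrane protrusions (chromosome 5, 44384864 to 44493271, minus strand) and shares exonic sequence with Gm16401 on the opposite strand. Its level was 0.0736 FPKM in D0, 0.892 in D3, 1.54 in D6T- and 1.27 in D6T+. It was 4.67 FPKM in D9T-, 2.23 in D9T+, 2.95 in D12S+ and 3.26 in D12S-. D16S+ had 3.39 FPKM, D16S- 2.26, iPSCs 0.975 and mESCs 1.11. It was highest in D9T- and lowest in D0, and the fractions differed by 0.16, 0.81, -0.11 and 0.43, under 2-fold on each day. Its relative Prom2 was highest in D12S+, with 0.0224 FPKM in D0, 10.5 in D12S+ and 0.864 in iPSCs. Podxl, a sialomucin of the CD34 family, was higher in D3 and iPSCs than in D0, unlike Cd34, and lower in D16S+ than in D16S-, like Cd34. It was at 0.379 FPKM in D0, 51.6 in D3, 59.3 in D16S+, 255 in D16S- and 20.7 in iPSCs.

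Partners of Cd44 and Pdpn were described in the same way. The first list held 8 Cd44 partner genes past 1 FPKM, all for hyaluronan except Spp1. Of these 8, 1 was higher (18.7% of all genes) in iPSCs than in D0. Another 5 were lower (Has1, Has2, Stab1, Spp1 and Vcan, against 21.6%). The median was -1.51 against 0.03 over all genes. Vcan, the hyaluronan-binding proteoglycan versican, was at 27.5 FPKM in D0 and 1.07 in iPSCs, and Has1, a hyaluronan synthase, was highest in D9T+ at 38.8. Of the 6 ERM linkers and splicing regulators, 3 were higher (18.7%) and 1 was lower (21.6%) in iPSCs than in D0, with a median of 1.56. Ezr, which encodes the linker ezrin, was at 24.0 FPKM in D0 and 136 in iPSCs, and Msn, which encodes moesin, was at 226 and 42.2. Esrp1, an epithelial splicing regulator that is known to act on Cd44 transcripts, was at 0.0120 FPKM in D0, 32.7 in D16S+, 5.31 in D16S- and 10.2 in iPSCs, and gene-level values do not show which Cd44 isoforms were present.

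The members were then counted in each comparison, over the 9 genes past 1 FPKM. Comparisons that share a library are not independent of each other. On day 6, 0 genes were at least 2-fold higher in D6T- (2.93% of all genes) and 4 were lower (Thy1, Fut4, Cd34 and Pdpn, against 9.47%). On day 9, 0 were higher (1.81%) and Thy1 and Pdpn were lower (6.45%). On day 12, Pecam1 was higher in D12S+ (4.79%) and 4 were lower (Thy1, Cd44, Cd34 and Ly6a, against 3.03%). On day 16, Pecam1 was higher in D16S+ (11.8%) and 6 were lower (Thy1, Cd44, Icam1, Cd34, Ly6a and Pdpn, against 15.2%). The count of 6 was 4 at 1 total FPKM, without Icam1 and Pdpn, and 5 with the median of ratios, without Pdpn. Lower values in the successful fraction thus outnumbered higher ones among the markers on each day. The same held for all genes on days 6, 9 and 16 as deposited, but not on day 12. For day 16 it depended on the scaling, with 1669 higher and 2162 lower as deposited. At 1 total FPKM, 1980 were higher and 1967 lower. The counts of days 6 and 9 also hold Thy1, on whose protein the fractions were sorted. Irrespective of size, 7 of the 9 were lower on all 4 days, as were 24.8% of all genes, and Pecam1 was higher on all 4, as were 23.2%. Thy1 was at least 2-fold lower on all 4 days, as were 1.07% of genes, and on days 6 and 9 it was the sorting marker.

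Along the route, Ly6a was higher in D3 than in D0 (5.76% of all genes) and Thy1, Fut4 and Pdpn were lower (8.67%). From D3 to D6T-, 0 were higher (3.96%) and Thy1 and Pdpn were lower (6.62%). From D6T- to D9T-, Prom1 was higher (5.06%) and 0 were lower (1.14%). From D9T- to D12S+, Thy1 and Pecam1 were higher (7.05%) and Cd44 and Cd34 were lower (3.3%). From D12S+ to D16S+, Pecam1 was higher (3.59%) and Thy1, Cd44 and Cd34 were lower (5.32%). From D16S+ to iPSCs, 0 were higher (4.38%) and Cd44, Cd34, Ly6a and Prom1 were lower (7.77%). The steps to lower levels of at least 2-fold were therefore spread over the route. They lay up to day 6 for Fut4 and Pdpn and after day 9 for Cd44, Cd34, Ly6a and Prom1. Thy1 had them in both parts, up to day 6 and again into D16S+. Just under 2-fold were the drops of Cd34 from D0 to D3 (-0.95) and of Cd44 from D3 to D6T- (-0.94). Some markers also took opposite steps on the 2 routes that were at least 2-fold apart. Cd34 did so from day 6 to day 9, as did 1.44% of all genes. Its fractions came closer, with log2 differences of -1.33 on day 6 and -0.31 on day 9. Cd44 and Ly6a did so from day 12 to day 16, as did 7.43% of all genes, and their fractions moved further apart.

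Between the end points, Pecam1 was higher in iPSCs than in D0 (18.7% of all genes) and 6 were lower (Thy1, Fut4, Cd44, Cd34, Ly6a and Pdpn, against 21.6%). The log2 differences of these 6 were -7.33, -1.67, -5.01, -5.29, -2.73 and -3.73, and that of Pecam1 was 4.45. D16S- had 4 genes above D0 (Icam1, Pecam1, Ly6a and Prom1, against 12.8%) and 3 below it (Thy1, Fut4 and Pdpn, against 11.4%), so it did not match the fibroblasts in 7 of the 9. Compared with mESCs, iPSCs had more Pdpn (6.79%) and less Thy1, Icam1, Pecam1 and Ly6a (7.41%). Scaling all libraries to 1 total FPKM moved the median of all genes from -0.02 to 0.12 for D3 against D0, from 0.03 to 0.18 for iPSCs against D0, from near 0 to 0.19 for D16S- against D0 and from -0.01 to -0.14 for iPSCs against D16S+, and by under 0.1 elsewhere. The share of higher among all genes called then went from 39.9% to 56.5% for D3 against D0. It went from 52.9% to 68.2% for D16S- against D0 and from 46.4% to 56.2% for iPSCs against D0. For iPSCs against mESCs it went from 47.8% to 57.0%, and for D16S+ against D16S- from 43.6% to 50.2%. For iPSCs against D16S+ it went from 36.1% to 22.9%. The count of marker genes called was equal in 25 of 26 directions and comparisons, the exception being the lower genes of day 16.

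**Figure D4:**
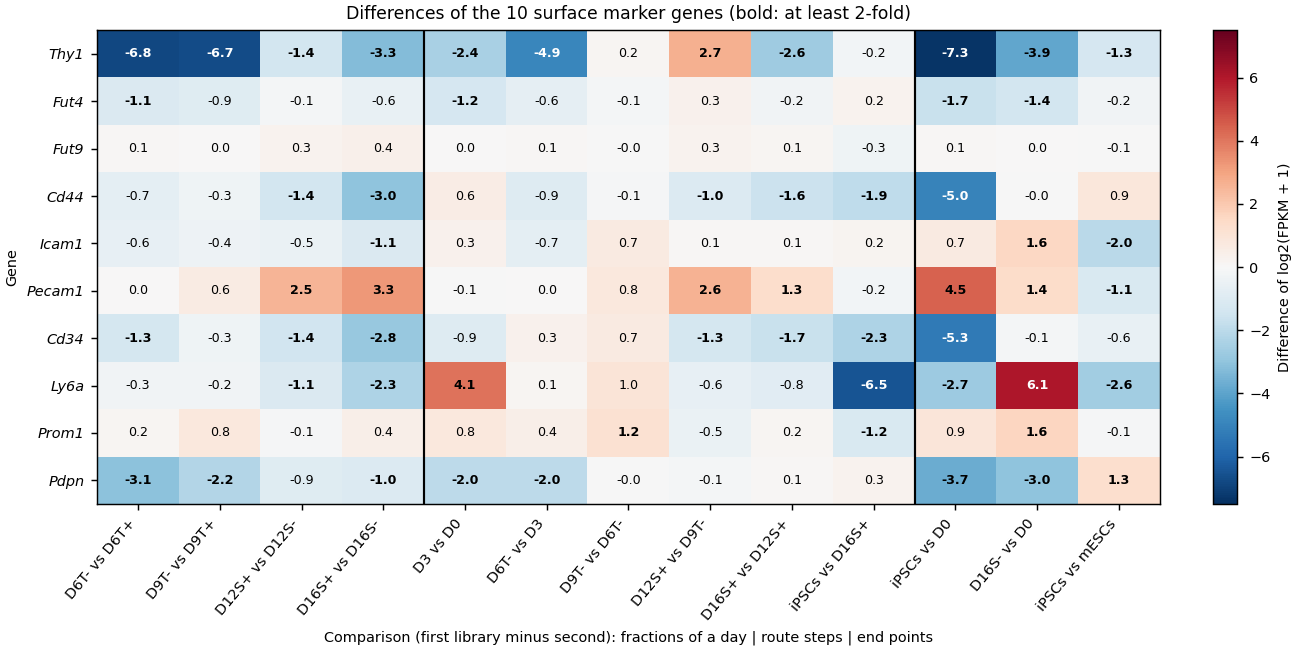
Differences of log2(FPKM + 1) for the 10 genes (vertical axis) in 13 comparisons (horizontal axis, first library minus second), with red for higher and blue for lower in the first library and bold numbers for at least 2-fold. Thy1 and Pdpn are blue on days 6 and 9, Thy1, Cd44, Cd34 and Ly6a are blue on days 12 and 16, and Cd34 also on day 6. Ly6a is 4.09 higher in D3 than in D0.

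**Figure D5:**
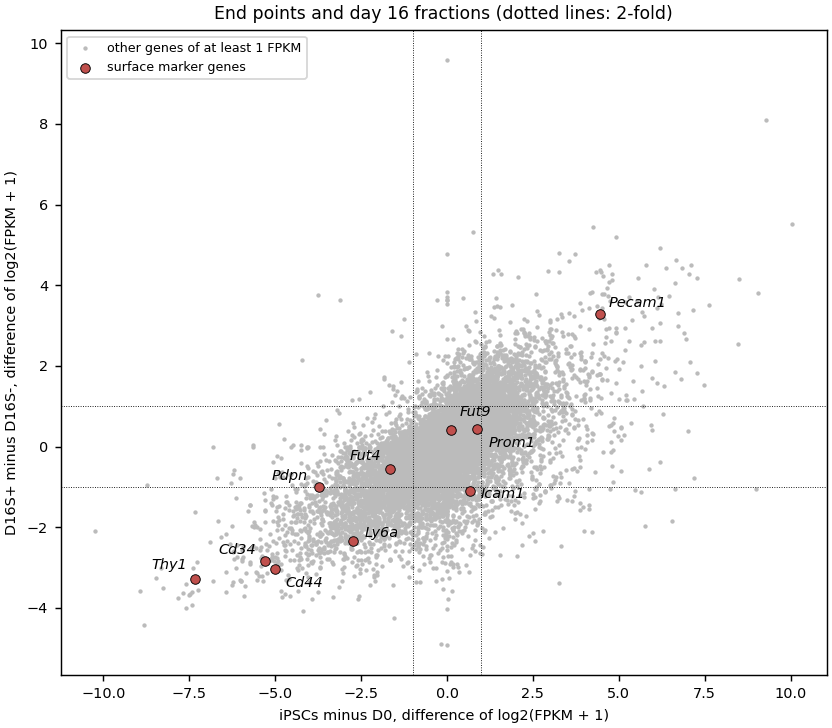
Difference between D16S+ and D16S- (vertical axis) against that between iPSCs and D0 (horizontal axis), both of log2(FPKM + 1), for all genes past 1 FPKM in grey and the 10 surface marker genes in red, with dotted lines at 2-fold. Thy1, Cd34, Cd44 and Ly6a are at the lower left and Pecam1 at the upper right, with Pecam1 at 4.45 and 3.28.

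For each of the 9 genes, the 3 genes with the highest Pearson r over the 12 libraries were named. They were Uaca, Lrrc27 and Vasn for Thy1 (r of 0.967 to 0.952), Scarf2, Lsp1 and Rmdn2 for Pdpn (0.985 to 0.980), and Socs5, Dpysl3 and Ccnd2 for Cd44 (0.989 to 0.985). For Cd34 they were Sdccag8, Pkd1 and Zadh2 (0.987 to 0.985), for Ly6a Aldh3a1, Insr and Crym (0.975 to 0.953), and for Fut4 Grin2d, Man1c1 and Calr (0.978 to 0.973). For Pecam1 they were Map3k9, Col9a2 and Casz1 (0.995 to 0.994), for Prom1 Slc46a3, Akap7 and Firre (0.963 to 0.944), and for Icam1 Gm9895, H2-Ab1 and Pla2g16 (0.941 to 0.920). High values of r were common for some genes and rare for others. An r of at least 0.9 was reached by 837 genes for Pecam1, 530 for Cd44, 475 for Cd34, 388 for Pdpn, 199 for Fut4, 119 for Thy1, 62 for Ly6a, 28 for Prom1 and 9 for Icam1. Aldh3a1, an aldehyde dehydrogenase gene, was near Ly6a also in level, with 3.31 FPKM in D0, 682 in D9T-, 869 in D16S- and 0.436 in iPSCs. Without the 2 libraries farthest from the median of each gene, the r of the Icam1 neighbours was 0.635 to 0.735 and that of the others 0.899 to 0.993.

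Marker lists were used to check the cells. All 10 fibroblast reference genes were at least 2-fold lower (21.6% of all genes) and all 10 pluripotency reference genes higher (18.7%) in iPSCs than in D0. Of 9 other fibroblast surface genes past 1 FPKM, 6 were lower (21.6%) and 1 was higher (18.7%) in iPSCs than in D0, with a median of -3.68. In D16S+ against D16S-, 7 of them were lower (15.2%) and 0 higher (11.8%). Of 10 other surface genes of pluripotent cells, 7 were higher (18.7%) and 0 lower (21.6%) in iPSCs than in D0, with a median of 4.29 against 0.03 over all genes. In D16S+ against D16S-, 5 of these 10 were higher (11.8% of all genes) and 1 was lower (15.2%), namely Cd24a at 11.9 against 40.6 FPKM. Among the 5, Cdh1, which encodes E-cadherin, was at 0.150 FPKM in D0, 130 in D16S+ and 44.6 in D16S-. Alpl, which encodes alkaline phosphatase, was at 0.502, 168 and 13.8 FPKM in these libraries.

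Since Pecam1, Cd34, Icam1, Pdpn and Thy1 also mark endothelial cells, leukocytes or T cells, markers of those cells were summed. The sum of 10 endothelial markers was between 11.3 FPKM in D6T+ and 47.8 in D16S-, with Emcn and Erg under 0.5 in every library. Of the 8 endothelial markers past 1 FPKM, 3 were higher (Tie1, Vwf and Cldn5, against 11.8% of all genes) and 3 lower (Cdh5, Tek and Esam, against 15.2%) in D16S+ than in D16S-. In iPSCs against D0, 3 were higher (Tie1, Esam and Vwf, against 18.7%) and 1 lower (Cdh5, against 21.6%). Vwf, which encodes von Willebrand factor, was at 5.58 FPKM in D16S+ and 0.311 in D16S-, and Cdh5, which encodes the cadherin of endothelial junctions, was at 1.89 and 5.77. The sum of 5 lymphatic markers was between 1.87 and 21.5 FPKM and was highest in D0, as was Pdpn. Flt4 made up 21.2 FPKM of it in D0, so the match with Pdpn rests on 1 gene. Prox1 went the other way, with 0.103 FPKM in D0 and 1.21 in D6T-. Lyve1 and Reln were under 0.5 FPKM everywhere and Ccl21a was listed at 0. The sum of 10 leukocyte markers was between 23.8 and 195 FPKM and was highest in D16S-, with most of it from Laptm5 and Cd68. Ptprc, the common leukocyte antigen, was at most 0.425 FPKM. Of the 7 past 1 FPKM, 3 were higher in D16S- than in D0 (Laptm5, Cd68 and Csf1r, against 12.8% of all genes). Another 3 were lower (Tyrobp, Fcer1g and Lyz2, against 11.4%), so the list did not go 1 way. The sum of 7 T cell markers was between 0.513 and 17.4 FPKM and was highest in mESCs, where Lck made up 14.5 FPKM. Cd4 and Cd8a were under 0.5 FPKM in every library, and Cd3e was listed at 0 in D0, where Thy1 was highest. Of the 4 past 1 FPKM, 3 were higher in D16S+ than in D16S- (Cd3e, Lck and Cd2, against 11.8% of all genes). In the same comparison 0 were lower (15.2%). The sum of 8 haematopoietic progenitor markers was between 7.37 and 41.9 FPKM and was highest in mESCs. There Kit, also listed among the surface genes of pluripotent cells, made up 33.6 FPKM. The sum of 8 keratinocyte markers was between 14.9 and 245 FPKM and was highest in D16S-, as was Ly6a, with 194 FPKM of it from Sfn. The part of such cells in the levels of the surface markers was not tested beyond these values.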

How the data were processed

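Messenger RNA of 12 conditions was sequenced from stranded TruSeq libraries (per the labels). The authors mapped the reads to mm9 with STAR, removed reads with more than 2 mismatches or more than 1 locus, and deposited FPKM values per gene from cuffdiff, with the ends of its interval (95% by default) and a status word. The gene annotation, the versions and the library scaling are not given in the sources used here. FPKM keeps no total fragment number, so absolute depth is unknown, and genes with close copies read low where shared reads were removed.

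Groups were taken from the titles. Values were analysed as log2(FPKM + 1), which understates the change of low genes, with Python 3.11.15, pandas 2.3.3 and numpy 2.4.6. Genes of at least 1 FPKM in 1 or more libraries were kept (14178), and no test was made. Genes named were the 10 members, up to 6 genes per list with the largest differences between iPSCs and D0 or between the day 16 fractions, Fut7, Fut10, Fut11, Podxl, Prom2 and Icam2, and the 3 genes most like each member other than the 4 factor genes. Has1, Slc35c1, Cdh5, Vwf, Flt4 and the cell type markers given one by one were named after their values had been seen. The members and lists were chosen with earlier results of these data known. Positions are from GENCODE M1 (mm9, 1-based), and promoter windows are from RefSeq (GRCm38.p6 table). Functions were tested on simulated data. Alternatives were the pseudocount, the filter, the fold and the scaling.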

Additional observations from a re-analysis of the deposited data

Results flagged for a closer look

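In 3 cases a marker went in opposite directions on the 2 routes over the same days, with at least 2-fold between the steps. Each value comes from 1 library, and the difference between the steps was not tested. The rule was chosen after the data had been seen. From day 6 to day 9, Cd34 was higher by 0.69 in the Thy-1- cells (34.9 to 57.0 FPKM) and lower in the Thy-1+ cells (89.5 to 70.7 FPKM, a log2 difference of -0.34), a gap of 1.03 that 1.44% of all genes also showed in either direction. From day 12 to day 16, Cd44 dropped by 1.60 in the SSEA-1+ cells (30.2 to 9.28 FPKM) and differed by 0.06 in the SSEA-1- cells (79.6 to 83.3 FPKM), a gap of -1.67. Over the same days Ly6a dropped by 0.84 in the SSEA-1+ cells (417 to 233 FPKM) and was higher by 0.43 in the SSEA-1- cells (876 to 1180 FPKM), a gap of -1.27. Such gaps were seen in 7.43% of all genes for days 12 to 16.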

How the results depend on the processing

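No paired analysis was possible because each condition had 1 library. With each scaling (1 total FPKM, median of ratios) the count of marker genes called was equal in 25 of 26 cases, the exception being 6 lower genes on day 16, which became 4 and 5, and 0 of 130 log2 differences moved by 1.5-fold or more. With 1 total FPKM, 3 differences of at most 0.13 in size changed sign (Pecam1 in D3 against D0, to 0.0026, and Cd44 and Cd34 in D16S- against D0, to 0.25 and 0.17), and the count of all genes lower in D16S- than in D0 was 1075, against 1620 as deposited. A pseudocount of 0.1 moved 27 of 130 differences by that much. It gave 2 higher genes in D9T- against D9T+, D12S+ against D12S-, D16S+ against D16S-, D3 against D0, D9T- against D6T-, iPSCs against D0 and iPSCs against mESCs, and 4 in D12S+ against D9T-. A 4-fold threshold left 2 lower genes on day 6, 0 on day 12, 1 in D3 against D0, 1 in D6T- against D3, 0 in D12S+ against D9T-, 1 in D16S+ against D12S+, 2 in iPSCs against D16S+ and 2 in iPSCs against mESCs. It left 0 higher genes in D9T- against D6T-, D16S+ against D12S+ and iPSCs against mESCs, and 1 in D16S- against D0. Neither filter (none, 5 FPKM) moved a count of all genes by over 1.5 times in 26 of 26 cases, and leaving out Ly6a, whose estimate had failed in D6T- and D9T+, moved 0 of 6 counts. The genes most like a marker depended on the measure. At most 1 of the 3 genes stayed for 7 of 9 markers with Spearman rho and for 6 of 9 with a pseudocount of 0.1. The alternatives without Ly6a and with all genes at 1 total, the ratio of Fut9 and the opposite steps were chosen after seeing the data.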
